A study of Mus musculus with 6 samples.

Results

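Ccnd2, Ccne1 and Cdc6 act on the way from G1 into S phase. All 3 had higher transcript levels in osteoclast precursors given sRANKL with M-CSF than in partner dishes given M-CSF alone. Each was measured by 1 probe set among the 2890 of the deposited table, and they are 3 of the 522 genes that the deposited files name. A gene has a name there only if its probe set is on the authors' list of changed probe sets, so the members were selected on the contrast of sRANKL with M-CSF alone. Their levels and differences in that contrast are therefore given as a description, with no test.

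The cells were mononuclear precursors from the bone marrow of wild-type SV129/BL6 mice, which the paper's culture methods describe as 6 to 12 weeks old. In each of 3 independent experiments, marrow of 3 mice was pooled, kept for 48 hours in 10 ng/ml M-CSF and divided between a pair of dishes. One dish received 20 ng/ml M-CSF with 200 ng/ml sRANKL and its partner 20 ng/ml M-CSF alone, for 2 days. The sRANKL had been made from the plasmid pGEX-4T-1, which is used for expression in bacteria. M-CSF was present in both groups, and a replicate is a pool of mice, not an animal. RNA was read on Affymetrix Mouse Gene 1.0 ST arrays, 3 per group, and the number of arrays limits the precision. The sample records put the precursors at a minority of the gradient layer from which the dishes were seeded, so other marrow cells were present at the start.

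D-type cyclins such as cyclin D2 (Ccnd2) accumulate in response to growth factors and activate the kinases that begin to phosphorylate the retinoblastoma protein, which releases E2F transcription factors. Cyclin E1 (Ccne1) then activates the kinase that completes this step and starts DNA replication, and Cdc6 loads the replicative helicase onto origins marked by the origin recognition complex. Ccne1 and Cdc6 are textbook E2F target genes, and M-CSF is the growth factor that drives division of macrophage precursors, which stop dividing as they become osteoclasts.

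Ccnd2 had the largest difference of the 3. In the sRANKL dishes of Experiments 1, 2 and 3 its RMA intensity, a linear brightness of the probe set after normalisation, was 1531, 1189 and 852, and in their partners it was 296, 348 and 228. The lowest dish with sRANKL was 2.45 times the highest dish without it, so the groups did not overlap, as in 77.8% of all rows and in every named gene. On the log2 scale the sRANKL dishes averaged 10.18 ± 0.42 (SD, n = 3) and the partners 8.16 ± 0.31 (SD, n = 3). The difference was 2.02 (standard error 0.26), a fold change of 4.04. Its standard error, like those of the other 2 genes, is limma's, moderated over all rows and with the dishes not paired. The brightest of the sRANKL dishes was that of Experiment 1 and the dimmest that of Experiment 3, which was also the lowest of the partners. The probe set lies on the minus strand of chromosome 6 between 127075726 and 127101066 in the authors' list (Entrez 12444), for which the sources used here give no build.

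Cdc6 stood at 436, 404 and 462 in the sRANKL dishes and at 117, 216 and 157 in their partners. The dishes with sRANKL lay close together, with a log2 mean of 8.76 ± 0.10 (SD, n = 3), while those with M-CSF alone spread more widely around 7.31 ± 0.44 (SD, n = 3). The difference was 1.45 (standard error 0.23), which is 2.74-fold, and the closest dishes of the groups differed 1.87-fold. The gene is on the plus strand of chromosome 11 between 98769203 and 98785256 in the authors' list (Entrez 23834).

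Ccne1 read 494, 606 and 601 after sRANKL, against 159, 299 and 227 after M-CSF alone. The log2 means were 9.14 ± 0.17 (SD, n = 3) and 7.79 ± 0.46 (SD, n = 3), a difference of 1.35 (standard error 0.24), or 2.55-fold. As for Cdc6, most of the spread was among the M-CSF alone dishes, where the highest was 1.88 times the lowest, against 1.23 times with sRANKL. The groups did not overlap, and their closest dishes differed 1.65-fold. The gene is on the minus strand of chromosome 7 between 38883003 and 38892553 in the authors' list (Entrez 12447).

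**Figure D1:**
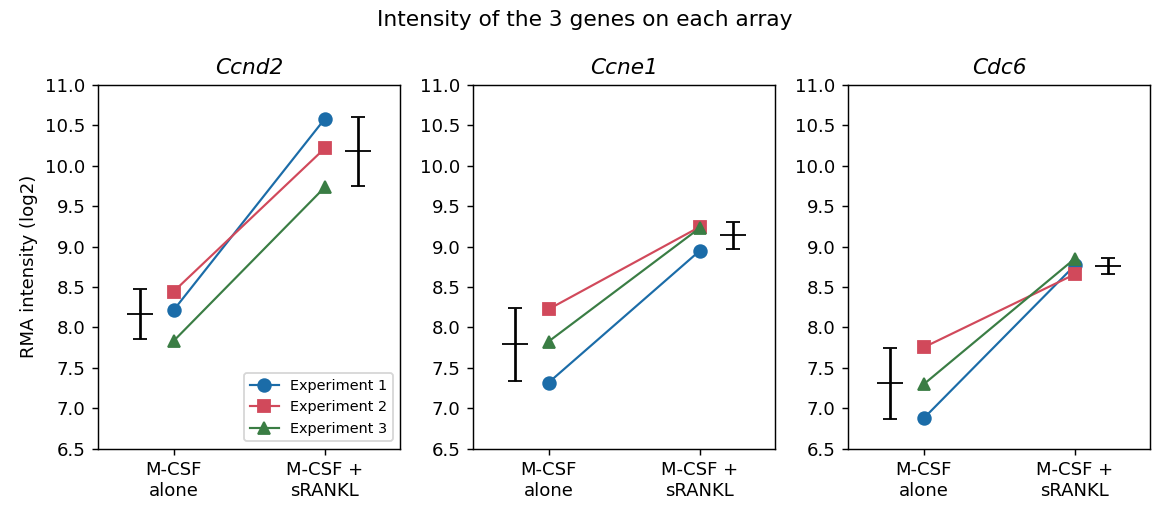
RMA intensity on the log2 scale (vertical axis) of Ccnd2, Ccne1 and Cdc6 with M-CSF alone and with M-CSF and sRANKL; each line joins the partner dishes of an experiment, and the black bars are the mean and SD of 3 arrays. All 9 lines rise, and for Cdc6 the dishes with sRANKL (SD 0.10) lie closer together than those without it (SD 0.44).

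All 3 genes were among the 44.9% of the table's 2859 rows (1 probe set per named gene) that were higher with sRANKL at an adjusted p under 0.05 in limma, and among the 16.1% that were also at least 2-fold higher. These shares are the background of a table that had been already filtered as deposited, in a way neither the paper nor the labels explain, and nothing about the members follows from them, since this contrast chose the members. The median log2 difference was 1.45 over the 3 genes, 0.42 over all rows and 1.39 over the 341 named genes that were higher. Among those 341, Ccnd2 was at place 69, Cdc6 at place 153 and Ccne1 at place 180 by size of the difference. Cdc6 and Ccne1 thus lay near the middle of the named genes that were higher. The list corresponds to a 2-fold limit with a p under 0.025 in a comparison with unequal variances, which returned exactly its 656 probe sets, while the list's own name holds a p of 0.05 among settings in abbreviated form. In that comparison with unequal variances, which was computed here, Ccne1 had a p of 0.0248 and Cdc6 of 0.0247. They were the last 2 of the 656 probe sets to fall inside the limit, and the nearest 2-fold probe set outside it had 0.02504. Ccnd2, at 0.00364, was well inside. The smallest fold of a higher probe set on the list was 2.003, and the largest just outside it 1.9998.

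**Figure D2:**
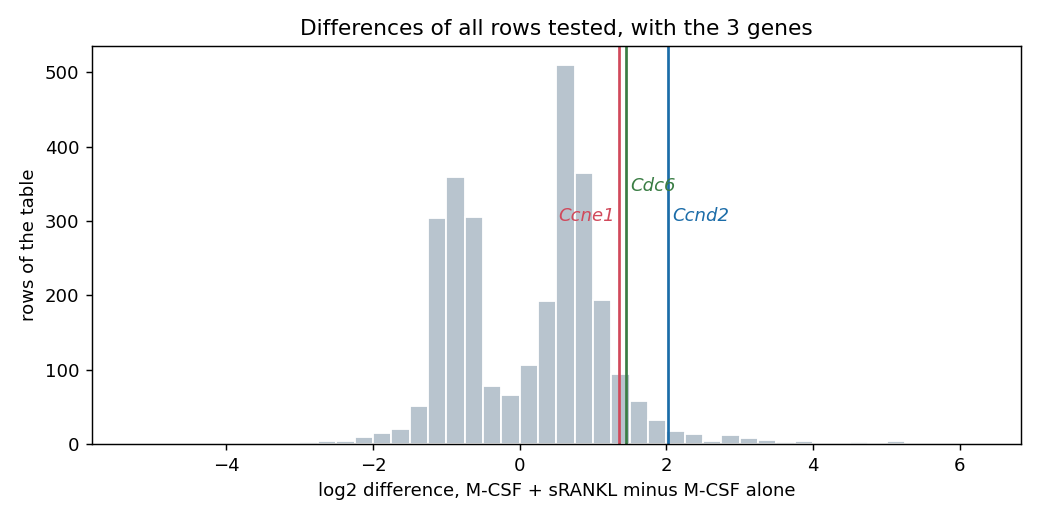
Number of rows (vertical axis) by log2 difference between M-CSF with sRANKL and M-CSF alone (horizontal axis) over the 2859 rows, with vertical lines at Ccne1 (1.35), Cdc6 (1.45) and Ccnd2 (2.02). Few rows lie near 0 in this filtered table, and the 3 genes lie to the right of the main group of higher rows.

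Within experiments, each gene was higher in the dish with sRANKL all 3 times, and the size of the difference varied between pools. For Ccnd2 the fold was 5.17, 3.42 and 3.74 in Experiments 1, 2 and 3. For Ccne1 it was 3.10, 2.03 and 2.65, and for Cdc6 3.72, 1.87 and 2.94. Experiment 1 gave the largest and Experiment 2 the smallest difference for each of them. Among the 341 named genes that were higher, 36.1% had their smallest difference in Experiment 2, and 37.0% their largest in Experiment 1. Cdc6 varied most between pools, with an SD of its 3 log2 differences of 0.50, against 0.31 for Ccnd2 and 0.31 for Ccne1.

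The low difference of Ccne1 and Cdc6 in Experiment 2 went with a high level in its M-CSF alone dish. For Cdc6 the sRANKL dish of that experiment was also the lowest of its group, at 404, while for Ccne1 it was the highest, at 606. For both genes the M-CSF alone dish of Experiment 1 was the lowest and that of Experiment 2 the highest, an order that 43.6% of all rows shared. The median log2 intensities of these arrays had the same order, at 8.15 in Experiment 1, 8.43 in Experiment 2 and 8.30 in Experiment 3. With each array centred on its median, the order was still present for both genes, and 27.2% of rows had it. The range over the M-CSF alone dishes then fell from 0.91 to 0.62 for Ccne1 and from 0.88 to 0.59 for Cdc6 on the log2 scale. Array medians were also 0.15 higher on average with sRANKL than with M-CSF alone, and centring lowered each gene's difference by that amount, to 3.64-fold for Ccnd2, 2.46-fold for Cdc6 and 2.30-fold for Ccne1.

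Whether the pools differed in level was tested separately, in a limma fit with treatment and experiment and an F test over the experiments. The rule did not compare the experiments, but its p rose with the spread inside a group, which holds such differences. At an adjusted p under 0.05, 14.6% of the 2859 rows differed between experiments, and none of the 3 genes did. The adjusted p from limma was 0.0949 for Ccnd2, 0.126 for Ccne1 and 0.470 for Cdc6. Before adjustment, 2 of the 3, Ccnd2 and Ccne1, were under 0.05 in limma, as were 30.4% of all rows. Over both dishes, Ccnd2 in Experiment 3 was 0.61 below Experiment 1 on the log2 scale, whereas Ccne1 was 0.40 above it, and in Experiment 2 Ccne1 was 0.60 above Experiment 1. Genes with a wide spread inside a group were less likely to enter the list, so the members may be short of such differences.

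The 7 lists of cell cycle genes held 103 in all, and the files name 8 of them. The other 95 have no name in the files, so none was on the list under its symbol, and they were not analysed here. Of the 8, 6 were higher and 2 lower with sRANKL, against 65.3% higher among all 522 named genes, and all 8 are named only because they were on the list of changed probe sets. For the lower rows, the background in limma was 33.2% at an adjusted p under 0.05. Of the 10 listed G1 cyclins, their kinases and activators, 3 were named and all 3 were higher, namely Ccnd2, Ccne1 and Cdc25a. Cdc25a, the phosphatase that removes inhibitory phosphates from cyclin-dependent kinases, was 468, 491 and 559 in the sRANKL dishes against 146, 255 and 220 in their partners, a 2.50-fold difference. Of the 23 genes of origin licensing and firing, 3 were named and higher. Beside Cdc6 these were Orc1 and Orc2, subunits of the origin recognition complex onto which Cdc6 is recruited. Orc1 was 155, 182 and 186 against 62.8, 86.8 and 74.1, which is 2.35-fold. Orc2 was 439, 540 and 538 against 161, 269 and 240, which is 2.31-fold.

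The 2 lower genes restrain proliferation. Cdkn1b encodes p27, an inhibitor of the kinases that cyclin E and cyclin A activate, and was the 1 named gene of 7 listed kinase inhibitors. After sRANKL it was 598, 930 and 943, and in the partner dishes 1607, 1699 and 1937, at 0.463 of the level without sRANKL. Its probe set spans 162 bases of chromosome 6, from 134875352 to 134875513 in the authors' list, whereas those of the 3 members span between 9551 and 25341 bases. Mxd4, a partner of MAX that opposes MYC at shared sites, was the 1 named gene of 10 for MYC and its partners. After sRANKL it was 306, 312 and 292, and in the partner dishes 1043, 922 and 967, at 0.310 of the M-CSF alone level. No gene was named among the 13 RB and E2F proteins, the 20 genes of DNA synthesis or the 20 genes of G2 and mitosis. None of them was thus on the list under its symbol, and no value can be given here for the later phases of the cycle. Whether they fell short of the list's limits or were filtered out of the table cannot be told. All 8 named cell cycle genes had their smallest difference in Experiment 2, also with each array centred on its median. Of all named genes, 36.6% had theirs there as deposited and 34.3% after centring. The 8 genes were measured in the same 3 pairs of dishes, so they are not independent of one another. In Experiment 2 the fold was 1.92 for Cdc25a, 2.09 for Orc1 and 2.01 for Orc2.

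**Figure D3:**
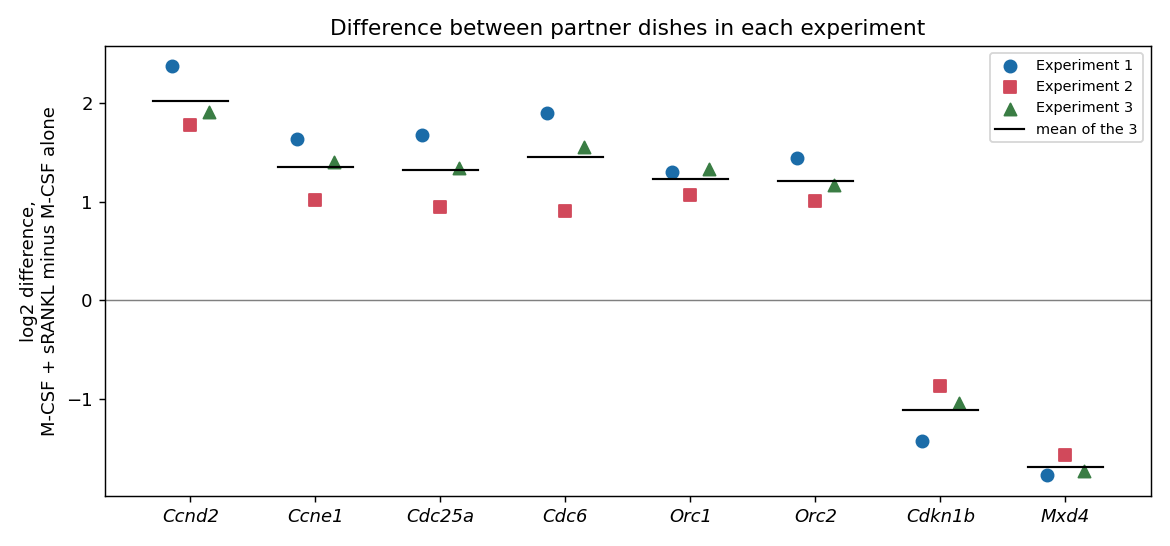
Log2 difference between the dish with sRANKL and its partner with M-CSF alone (vertical axis) for the 8 named cell cycle genes; symbols are the 3 experiments and black lines their mean. Cdkn1b and Mxd4 are below 0 and the other 6 genes above it, and the square of Experiment 2 is the nearest to 0 for each gene.

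The 3 members did not share 1 profile. Likeness was measured as the root mean square difference between 2 genes' log2 values over the 6 arrays, after each gene was centred on its own mean. Between Ccne1 and Cdc6 it was 0.13, and 7 of the other named genes were nearer to Cdc6 than Ccne1 was. Ccnd2 was 0.54 from Ccne1 and 0.47 from Cdc6, against a median distance of 0.57 between Ccnd2 and the other named genes. The genes nearest to Ccnd2 were Cd69, an early activation antigen of leukocytes, at 0.20, Dusp4, a phosphatase of MAP kinases, at 0.21, and Acsl1, an acyl-CoA synthetase, at 0.22. Nearest to Ccne1 were Lyar, a nucleolar protein, at 0.09, Cdc25a at 0.09 and Mthfd2, a mitochondrial enzyme of folate metabolism, at 0.09. Nearest to Cdc6 were Mthfd2 at 0.05, Asns, asparagine synthetase, at 0.10 and Cdc25a at 0.11. Mthfd2 was 1011, 1019 and 1113 in the sRANKL dishes against 298, 521 and 395 in their partners, the same order of the control dishes as for Cdc6. These distances are over 6 arrays that fall into 2 groups, so they mostly describe the size of the treatment difference and the order of the control dishes.

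**Figure D4:**
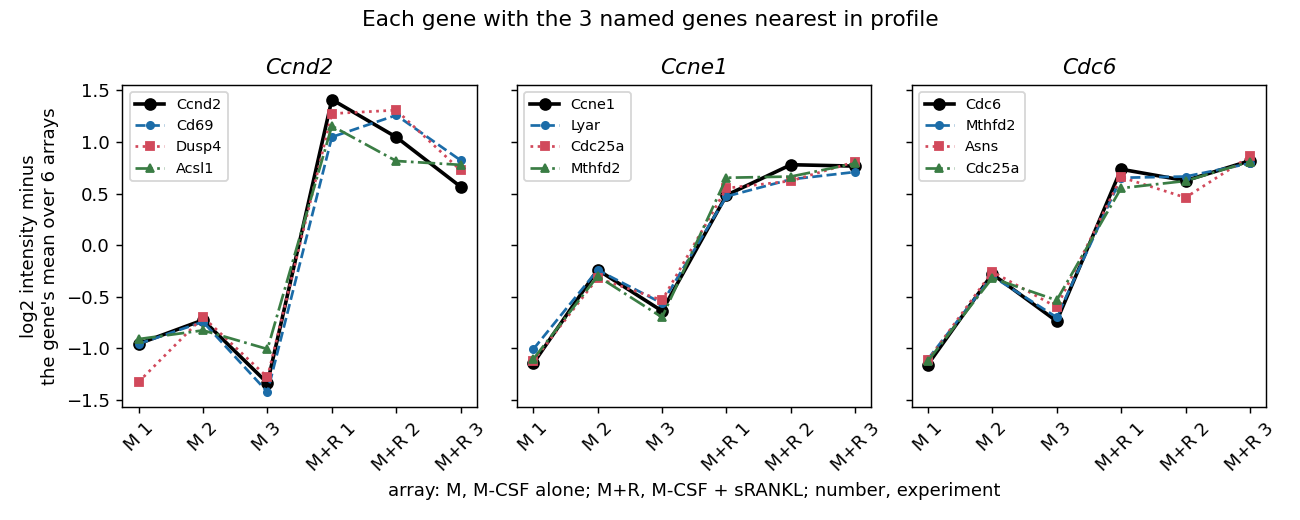
Log2 intensity minus the gene's own mean (vertical axis) on the 6 arrays (horizontal axis) for each of the 3 genes in black with the 3 named genes nearest in profile. Ccne1 and Cdc6 share Cdc25a and Mthfd2 as neighbours and have their lowest point in the M-CSF alone dish of Experiment 1, while Ccnd2 has its lowest in that of Experiment 3.

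The promoters of Cdc6, Ccne1 and Cdc25a, which was near both in profile, are shown for the words that E2F and other factors are known to bind. Those of Orc1, Orc2, Cdkn1b and Mxd4 were searched in the same way but are not printed. RefSeq windows on GRCm38.p6, of 250 bases before and 50 after a gene's start, were matched for 7 of the 8 genes by Entrez number, among them Cdc6 and Ccne1 but not Ccnd2. Orc2 alone had 2 windows, so 8 windows were searched. Capitals mark a match on either strand to TTTCCCGC or TTTGGCGC (E2F), the E-box CACGTG, the word CCAAT, the AP-1 word TGANTCA or an NF-kB word of GGG, any 2 bases and TTTCC, and the sequences run from 5′ to 3′ of the gene. Cdc6 is chr11:98907901-98908200 (plus strand), Ccne1 chr7:38107441-38107740 (minus strand) and Cdc25a chr9:109875329-109875628 (plus strand), in a build that gives other positions than the authors' list.
Cdc6: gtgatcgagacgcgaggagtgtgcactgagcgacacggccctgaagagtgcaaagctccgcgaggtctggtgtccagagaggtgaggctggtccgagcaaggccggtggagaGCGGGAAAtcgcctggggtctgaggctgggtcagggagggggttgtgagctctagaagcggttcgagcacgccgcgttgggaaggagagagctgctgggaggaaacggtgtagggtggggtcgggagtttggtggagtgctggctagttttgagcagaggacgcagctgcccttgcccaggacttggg
Ccne1: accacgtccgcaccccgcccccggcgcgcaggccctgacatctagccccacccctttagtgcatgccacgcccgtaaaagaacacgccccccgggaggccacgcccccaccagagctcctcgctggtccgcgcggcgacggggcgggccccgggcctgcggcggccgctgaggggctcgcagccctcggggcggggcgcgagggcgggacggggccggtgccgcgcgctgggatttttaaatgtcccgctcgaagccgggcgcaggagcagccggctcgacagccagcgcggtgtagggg
Cdc25a: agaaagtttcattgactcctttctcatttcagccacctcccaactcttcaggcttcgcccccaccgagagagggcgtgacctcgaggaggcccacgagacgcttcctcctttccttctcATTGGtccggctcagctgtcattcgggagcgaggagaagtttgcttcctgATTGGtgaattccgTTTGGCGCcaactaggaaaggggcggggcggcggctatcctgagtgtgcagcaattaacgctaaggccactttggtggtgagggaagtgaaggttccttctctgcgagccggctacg

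The Cdc6 window held 1 match, GCGGGAAA, which is TTTCCCGC on the other strand and begins 138 bases before the start. TTTCCCGC on either strand was present in 1.07% of all 32851 windows of this length. Cdc25a held TTTGGCGC, 67 bases before the start, a word found in 0.514% of windows, and 2 matches to CCAAT. The Ccne1 window, with a GC content of 76.0% against a median of 52.7% over all windows, held none of the 6 words. Neither E2F word was found in the windows of Orc1, Orc2, Cdkn1b or Mxd4. Other forms of the E2F site were not searched for. No window of the 7 genes held the AP-1 or the NF-kB word, which 7.81% and 1.63% of all windows held, and CACGTG was found in Mxd4 alone, against 7.15% of all windows. The CCAAT word, in 37.4% of all windows, was found in Cdc25a, Orc1, both windows of Orc2, Cdkn1b and Mxd4. A match describes letters and is not evidence of binding, and the absence of one says only that these letters are not in this window.

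These are bulk samples, in which a higher level per cell and a larger share of dividing cells cannot be told apart. Of 13 listed osteoclast markers 6 were named, all higher with sRANKL. Their summed intensity was 5391 to 7376 against 610 to 977 in the partner dishes. A marker has a name only if it was on the list of changed probe sets, so the gap between sums was fixed beforehand. Markers without a name are not in the sums, and 65.3% of all named genes were higher. Of the 10 macrophage markers only Apoe was named, and it was lower with sRANKL, so the labelled monocyte identity could not be checked on more genes. Of 14 markers of neutrophils and granulocyte precursors 6 were named (Mpo, Prtn3, Ctsg, Stfa1, Stfa2 and Cstdc5), and their summed intensity was 6237 to 9836 with sRANKL and 1527 to 2405 with M-CSF alone. Of 6 stromal markers Dcn alone was named, at 105 to 186 with sRANKL and 45.1 to 60.6 without it. No marker of T and NK cells, B cells, mast cells and basophils or erythroid cells was named. That does not show these cells to be absent, since a marker at the same level in both groups would have no name. The part of these other cells in the differences of Ccnd2, Ccne1 and Cdc6 was not tested.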

How the data were processed

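Affymetrix Mouse Gene 1.0 ST arrays of 6 dishes were used. The authors deposited linear intensities that the submitters' processing notes credit to RMA and R 2.71. RMA corrects the background, equalises array distributions and summarises probes. The deposited table holds 2890 probe sets, already filtered as deposited, in a way neither the paper nor the labels explain. Short codes in the name of the authors' list, for a MAD, a low level, a fold of 2 and a p of 0.05, are explained in neither. A second deposited table, the authors' list of 656 changed probe sets, gave gene names, Entrez numbers and positions, and its columns of the authors' own comparison (means, folds and p-values) were not used. Of 553 list entries with a symbol, 547 were found in RefSeq (GRCm38.p6) and took its symbol, and of 12 genes with several probe sets the one with the highest mean was kept.

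Log2 intensities of 2859 rows were fitted with limma 3.58.1 in R 4.3.3 and no block, and p-values were adjusted over all rows by the Benjamini-Hochberg method. The experiment number pairs the dishes, since each pair came from 1 pool. Deviations from the group means correlated at 0.564 to 0.645 within pairs. An F test over experiments used treatment and experiment as terms. The code was tested on simulated data. Summaries and plots used Python 3.11.15, numpy 2.4.6, scipy 1.17.1, pandas 2.3.3 and matplotlib 3.10.9.

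The genes and lists were chosen with earlier results of these data known. Named in the text are the 3 members, every cell cycle list gene the files name, and the 3 named genes nearest in profile to each member, passing over predicted genes. Alternatives were the experiment block, limma-trend, the methods' t-test, median centring, quantile normalization, a filter at a mean log2 intensity of 7, averaging a gene's probe sets, and leaving out each array. Counting identical rows once was chosen after seeing the data.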

Additional observations from a re-analysis of the deposited data

How the results depend on the processing

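The differences of the 3 genes kept their direction in every alternative that gave a value, and moved by less than the SD pooled over both groups (0.37 for Ccnd2, 0.34 for Ccne1 and 0.32 for Cdc6, on the log2 scale). For Ccne1 and Cdc6 some moved by more than the smaller SD of the sRANKL dishes. Leaving out 1 array gave a log2 difference of 1.81 to 2.24 for Ccnd2, 1.12 to 1.57 for Ccne1 and 1.24 to 1.68 for Cdc6. The lower ends for Ccne1 and Cdc6 came when the control array of Experiment 1 was left out. Quantile normalization gave 1.79, 1.19 and 1.38. Each gene has 1 probe set, so averaging probe sets changed nothing. Because the genes were chosen for this difference, its stability was largely fixed beforehand. With the experiment as a replicate block, 2613 rows differed between treatments against 2235. The number of rows changed by less than 1.5 times in every alternative, as did that of rows differing between experiments, which was 417 as deposited, 296 after quantile normalization, 310 after centring and 298 with identical rows counted once. Centring and quantile normalization used only the filtered rows, most of which changed.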
